A study of Mus musculus with 65 samples.

Results

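The MEI4 peaks of mice lacking HORMAD1 were compared with the MEI4 peaks of wild-type mice. The Hormad1KO list holds 3828 peaks and the wild-type list 1566, together 5394 of the 97260 regions in the 24 lists of the series. A peak was counted as shared where its interval and an interval of the other list had at least 1 bp in common. By this rule 1428 wild-type peaks were shared and 138 were wild-type only, and 1433 Hormad1KO peaks were shared and 2395 were knockout only. The same names are used below for the 13808 wild-type DMC1 hotspots: 1413 had a MEI4 peak in both genotypes, 2306 in Hormad1KO only, 100 in the wild type only and 9989 in neither.

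MEI4 is an auxiliary protein of the meiotic break machinery. With IHO1 and REC114 it forms assemblies on the chromosome axis, and it is required for the DNA double-strand breaks made by SPO11. HORMAD1 is a HORMA-domain protein of the unsynapsed axis that binds IHO1, and SYCP3 is a filament-forming axis protein. In mice the breaks lie at hotspots set by PRDM9, and DMC1, the meiotic recombinase, marks them because it coats the single-stranded DNA at broken ends.

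The series holds 65 samples of 36 groups, nearly all of them an antibody used for chromatin immunoprecipitation and sequencing on whole testis of 1 genotype. The main groups here are wild-type C57BL/6JCrl mice and mice carrying Hormad1tm1.2Atot, called Hormad1KO, on the strain label C57BL/6JCrl. MEI4 lists of Spo11tm1Mjn (Spo11KO), Iho1tm1.2Atot (Iho1KO) and B6;129P2-Prdm9tm1Ymat/J (Prdm9KO) mice on that same strain label are set beside them. Counts over 21 lists of break and axis proteins also use IHO1, HORMAD1 and SYCP3 lists of these knockouts and of Mei4KO mice. Of these, SYCP3 of Prdm9KO, Spo11KO and Iho1KO has 1 sample each. All mice shared a synchronisation of spermatogenesis. From 1.5 days of age pups received WIN 18,466, which blocks retinoic acid action, by pipette for 7 to 10 days, and were then injected once with retinoic acid. Testes taken 8 days after the injection were, per the labels, enriched to 80 to 95% in leptotene and zygotene spermatocytes. Each of the MEI4 groups used here has 2 samples but 1 list, and whether a list pools its samples is not stated, so no difference between genotypes has a replicate check. The lists give no peak strength and their sequencing depth is unknown. Intervals are 95% intervals that cover counting error only and treat peaks or hotspots as independent. By the series' design text, the signal of Mei4KO was subtracted from every MEI4 list, so the MEI4 lists share that control. Peak lists hold no expression values, so neither the cell type nor the loss of HORMAD1 could be checked from them, and a HORMAD1 list of Hormad1KO was not analysed here.

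The peaks are seen as sequence where they hold an annotated promoter. RefSeq promoters of GRCm38.p6 run from 250 bases before to 50 bases after a gene's start. Of these 32851 promoters, 32 lay wholly inside a shared Hormad1KO peak and 51 inside a knockout-only peak. From the shared, the knockout-only and the no-MEI4 hotspots, the promoter wholly inside the hotspot (and, where there is one, the peak) with the highest wild-type DMC1 value is shown, a choice made after the values were seen. Each is written 5′ to 3′ on the gene's strand with CG dinucleotides, the sites of DNA methylation, in capitals.
Gm46165 (chr1:154103613-154103912, plus strand, shared): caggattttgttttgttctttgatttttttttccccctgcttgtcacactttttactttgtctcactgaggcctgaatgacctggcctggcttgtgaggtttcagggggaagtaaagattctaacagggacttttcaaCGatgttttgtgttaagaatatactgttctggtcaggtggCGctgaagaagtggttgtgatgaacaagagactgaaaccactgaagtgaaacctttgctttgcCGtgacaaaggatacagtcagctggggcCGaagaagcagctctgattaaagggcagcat
Pdcl2 (chr5:76331107-76331406, minus strand, knockout only): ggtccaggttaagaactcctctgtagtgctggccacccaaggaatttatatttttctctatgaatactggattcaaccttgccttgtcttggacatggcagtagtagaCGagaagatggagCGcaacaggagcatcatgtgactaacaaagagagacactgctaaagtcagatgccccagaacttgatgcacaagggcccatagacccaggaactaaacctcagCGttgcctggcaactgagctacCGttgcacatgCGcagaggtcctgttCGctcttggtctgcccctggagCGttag
Gm33570 (chr7:66581607-66581906, plus strand, in neither): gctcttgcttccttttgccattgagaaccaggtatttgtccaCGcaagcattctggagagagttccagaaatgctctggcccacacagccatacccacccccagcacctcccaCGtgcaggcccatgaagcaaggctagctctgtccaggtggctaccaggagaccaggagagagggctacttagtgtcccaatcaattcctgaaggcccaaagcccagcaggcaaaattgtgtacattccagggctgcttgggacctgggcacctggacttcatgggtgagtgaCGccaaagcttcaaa

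These promoters held 4, 7 and 3 CG dinucleotides. The shared hotspot at Gm46165 had a DMC1 value of 8698.5 in the wild-type list and 4555.5 in the Hormad1KO list, and it also carried IHO1 and SYCP3 peaks of both genotypes. The knockout-only hotspot at Pdcl2, a gene for a phosducin-like protein, had DMC1 values of 1373 and 143 and an IHO1 peak in Hormad1KO but not in the wild type. The hotspot at Gm33570, with values of 921 and 73.5, carried no IHO1 or SYCP3 peak of either genotype, although MEI4 was called there in Spo11KO. Promoters in MEI4 peaks were as a set close to promoters at large: the median CG count was 5.50 in shared and 7.00 in knockout-only peaks, against 7.00 over all promoters. Promoters inside hotspots without a MEI4 peak were richer, with a median of 24.0 over 1517 promoters and a median GC content of 63.0%, against 52.7% over all promoters.

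With the lists as deposited, most wild-type MEI4 peaks had a Hormad1KO counterpart, and most Hormad1KO peaks had none in the wild type. Of the wild-type peaks 91.2% (Wilson interval 89.7 to 92.5) were shared, while 62.6% (61.0 to 64.1) of the Hormad1KO peaks were knockout only. Both statements depend on the longer Hormad1KO list. With it cut to the 1566 widest peaks or the first 1566 lines, 56.1% or 66.0% of wild-type peaks were shared, and 56.1% or 66.2% of the Hormad1KO peaks had a wild-type counterpart. At the 1423 sites where 1 peak faced 1 peak, the centres lay a median of 158 bp apart and the Hormad1KO peak was 1.02 times as wide as the wild-type peak (quartiles 0.805 and 1.24). The widths of shared peaks thus spread around a ratio near 1, in both directions. Knockout-only peaks were narrower, with a median width of 1581 bp against 2041 bp for the shared peaks of the same list.

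The knockout-only peaks lay at wild-type hotspots. Of the knockout-only peaks 96.2% (95.4 to 96.9; 2304 of 2395) touched a wild-type DMC1 hotspot, close to the 98.6% (97.9 to 99.1) of the shared Hormad1KO peaks. The wild-type-only peaks did so for 71.7% (63.7 to 78.6; 99 of 138). Hotspots of the Hormad1KO DMC1 list lay under 82.2% of the knockout-only, 94.8% of the shared Hormad1KO and 39.9% of the wild-type-only peaks. Among all 13808 hotspots 11% had a wild-type MEI4 peak and 26.9% a Hormad1KO peak.

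Knockout-only hotspots lay between shared hotspots and those with no MEI4 peak by the authors' DMC1 value, which has no stated unit and is used here to rank hotspots within a list. The median wild-type value was 1583 at shared hotspots (quartiles 965 and 2776), 505 at knockout-only hotspots (253 and 973), 814 at wild-type-only hotspots (514 and 1317.2) and 81.0 at hotspots with no MEI4 peak (44.5 and 171). With the Hormad1KO list cut to equal length by width or by line order, the knockout-only median was 704 or 1072 and the wild-type-only median 1157.5 or 1004.5, so the order of these 2 turned with the first lines. When the hotspots were split into 10 equal classes of that value, the share with a MEI4 peak rose with strength in both genotypes, as the plot of MEI4 peaks by DMC1 class shows. In the strongest class 64.9% (62.4 to 67.4) had a wild-type peak and 91.5% (89.9 to 92.9) a Hormad1KO peak. The distance between the genotypes was widest in the eighth and ninth classes. There it was 39.8 points (Newcombe interval 36.7 to 42.8), from 8.91% to 48.7%, and 39.3 points (35.8 to 42.7), from 31.9% to 71.3%. The weakest class had 1 peak in the wild type and 7 in Hormad1KO among 1381 hotspots, 0.0724% and 0.507%. In each of the 10 classes the interval of the difference lay above 0, in the weakest class only just (0.00844 to 0.973). These intervals treat the 2 shares as independent, although both are counted on the same hotspots.

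**Figure D1:**
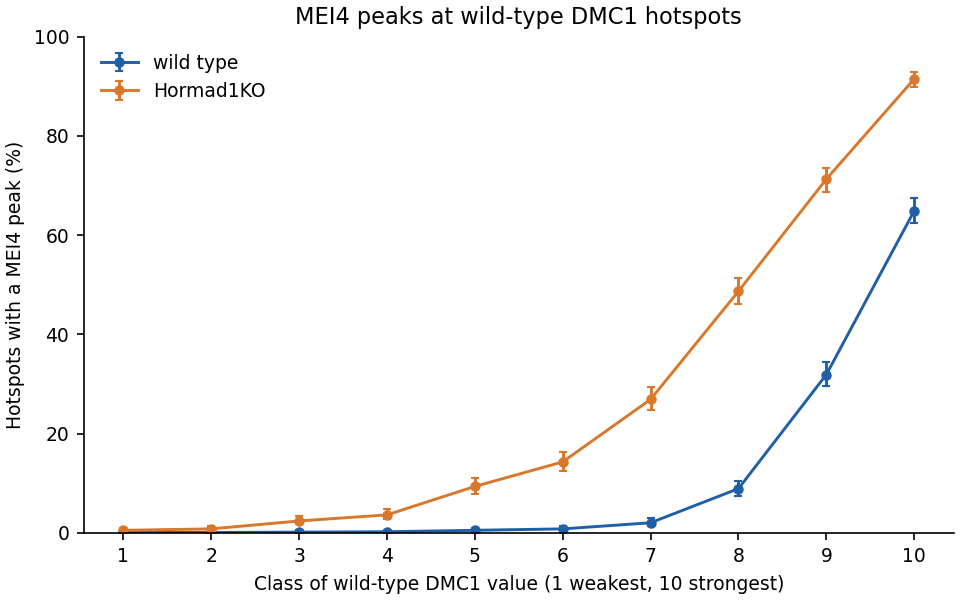
Share of wild-type DMC1 hotspots with a MEI4 peak (vertical axis, percent) in 10 equal classes of the wild-type DMC1 value (horizontal axis), for the wild type and Hormad1KO; points are 1 list each and bars are 95% Wilson intervals. Hormad1KO lies above the wild type in every class, with 91.5% against 64.9% in the strongest and 26.9% against 2.03% in the seventh.

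Hotspots with a Hormad1KO MEI4 peak were in the Hormad1KO DMC1 list more often than the others, although 1395 of the 4760 hotspots found there had MEI4 in neither genotype. The Hormad1KO DMC1 list has 5002 regions, against 13808 in the wild type. At the 4760 hotspots the median value was 76.5 in the Hormad1KO list and 663 in the wild-type list. The part of list length in the shares was not tested. The Hormad1KO DMC1 list held 96.0% of the shared and 84.7% (83.2 to 86.1) of the knockout-only hotspots. It held 56.0% (46.2 to 65.3) of the wild-type-only and 14.0% (13.3 to 14.7) of the remaining hotspots, beside 34.5% of all hotspots. Because the classes differ in strength, shares were also compared within the 10 classes of wild-type value and joined as a Mantel-Haenszel difference, called where its interval excludes 0. Knockout-only hotspots exceeded hotspots with no MEI4 peak by 42.3 points (39.9 to 44.7), or by 27.7 points with the Hormad1KO MEI4 list cut to its first 1566 lines. Between shared and knockout-only hotspots the raw difference of 11.3 points became -0.0649 points (-1.80 to 1.67) at matched strength, which was not called. With the first 1566 lines it was -1.66 points (-2.80 to -0.526), which was called. In the eighth class 85.6% of shared and 85.8% of knockout-only hotspots were in the Hormad1KO DMC1 list, against 44.6% of those with no MEI4 peak.

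At like wild-type strength, the DMC1 value in Hormad1KO was highest at shared and lowest at hotspots with no MEI4 peak. In the strongest class the hotspots found in the Hormad1KO DMC1 list had a median value there of 330 where MEI4 was shared (862 hotspots), 214 where it was knockout only (392) and 104 where neither genotype had it (84). At the 22 wild-type-only hotspots of this class it was 303, above the knockout-only median. The medians of the wild-type value in the shared, knockout-only and no-MEI4 hotspots were 2418.5, 2063 and 1882.2, so within the class the order of strength was still the same. In the ninth class the Hormad1KO medians of these 3 classes were 124, 86.2 and 44.2 (52.0 at 24 wild-type-only hotspots), and in the seventh 98.0, 58.0 and 32.2. Ranked among the 4760 hotspots of both DMC1 lists, knockout-only hotspots had a median percentile of 45.3 by the wild-type value and 52.0 by the Hormad1KO value. Shared hotspots stood at 78.7 and 78.3, and hotspots with no MEI4 peak at 24.0 and 21.1. These values are descriptions with no test, since DMC1 was listed once per genotype.

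IHO1, the partner that HORMAD1 binds, was called at many more of these hotspots in Hormad1KO than in the wild type. IHO1 peaks of Hormad1KO lay at 71.5% (69.1 to 73.8) of shared, 29.3% (27.5 to 31.2) of knockout-only, 20% (13.3 to 28.9) of wild-type-only and 0.370% (0.269 to 0.510) of the remaining hotspots, beside 12.6% of all. IHO1 peaks of the wild type lay at 26.7%, 5.59%, 20% and 0.461% of the same classes, beside 4.14% of all. At matched strength, knockout-only hotspots exceeded hotspots with no MEI4 peak by 20.1 points (18.4 to 21.8) for the Hormad1KO IHO1 list, and shared hotspots exceeded knockout-only ones by 20.4 points (16.8 to 24.0). Both differences were called. When the Hormad1KO MEI4 list was cut to as many peaks as the wild-type list holds, by width or by line order, the first became 37.6 and 61.3 points and the second 12.7 and 4.61 points, all still called. In the strongest class IHO1 of Hormad1KO was called at 83.1% of shared, 67.4% of knockout-only and 13.2% of the remaining hotspots (12 of 91).

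**Figure D2:**
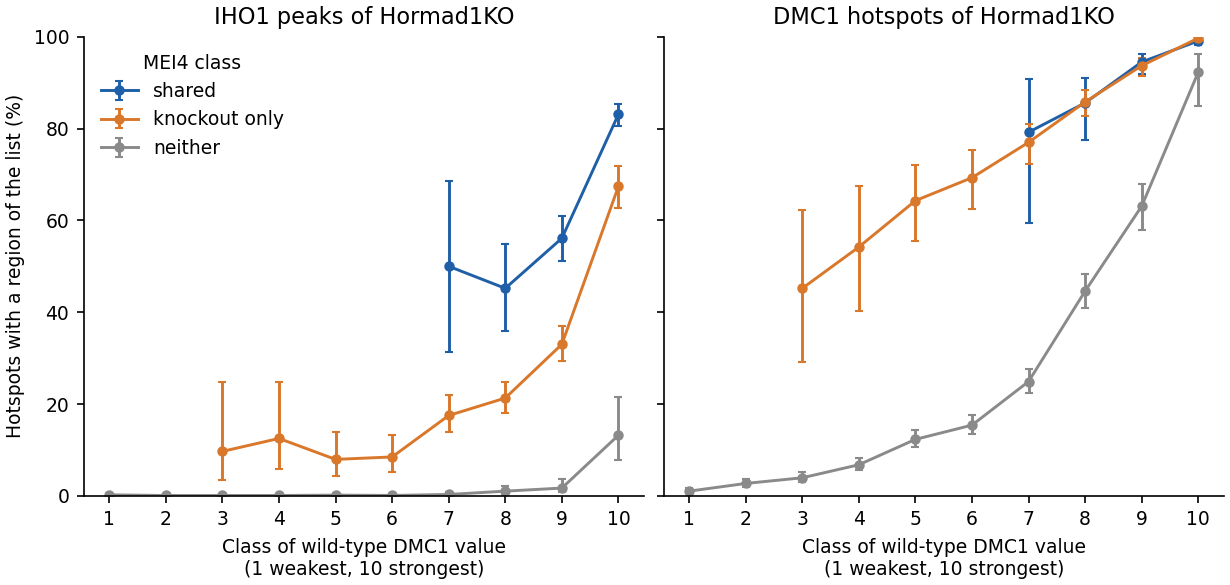
Share of hotspots with an IHO1 peak of Hormad1KO (left) or in the Hormad1KO DMC1 list (right), in percent, by class of wild-type DMC1 value and by MEI4 class; bars are 95% Wilson intervals and points with under 20 hotspots are left out. For IHO1 the 3 MEI4 classes lie apart at 83.1%, 67.4% and 13.2% in the strongest class, whereas for DMC1 the shared and knockout-only points overlap.

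Most MEI4 hotspots with IHO1 in the wild type also had IHO1 in Hormad1KO, and many more were added. At shared hotspots 87.3% (83.5 to 90.3; 329 of 377) of those with wild-type IHO1 also had it in Hormad1KO, and 65.8% (62.9 to 68.7; 682 of 1036) of those without it gained a call. At knockout-only hotspots 79.8% (72.1 to 85.9; 103 of 129) kept it and 26.3% (24.5 to 28.2; 572 of 2177) gained it. At wild-type-only hotspots 16.2% (13 of 80) gained it, and at those with no MEI4 peak 0.302% (30 of 9943). Most hotspots with MEI4 in Hormad1KO only still lacked an IHO1 call there (1631 of 2306), as did 12065 of all 13808 hotspots. Neither IHO1 nor SYCP3 of Hormad1KO lay at 1619 of the 2306 knockout-only and 382 of the 1413 shared hotspots. The same held for 77 of 100 wild-type-only hotspots and 9924 of 9989 with no MEI4 peak.

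SYCP3, the axis filament protein, went the other way. In the wild type it was called at 47.8% (45.2 to 50.4) of shared, 11.2% (10.0 to 12.6) of knockout-only, 27.0% (19.3 to 36.4) of wild-type-only and 0.701% of the remaining hotspots, beside 7.47% of all. In Hormad1KO these shares were 8.49%, 1.86%, 7.00% and 0.300%, beside 1.45% of all. Of the hotspots with wild-type SYCP3, 15.9% (13.3 to 18.8; 107 of 675) kept it at shared and 13.5% (9.88 to 18.2; 35 of 259) at knockout-only sites, and at hotspots with no MEI4 peak the share was 14.3% (7.95 to 24.3; 10 of 70). The drop in SYCP3 calls was therefore of like size in these classes. At wild-type-only hotspots 25.9% (13.2 to 44.7; 7 of 27) kept it. The SYCP3 list of Hormad1KO was the shorter, with 823 regions against 1911 in the wild type. The part of list length in the drop was not tested. The wild-type SYCP3 call was absent in Hormad1KO at 568 of 675 shared and 224 of 259 knockout-only hotspots, which have a Hormad1KO MEI4 peak by definition. It was also absent at 20 of 27 wild-type-only hotspots and at 60 of 70 with no MEI4 peak. At matched strength the Hormad1KO SYCP3 list differed by 0.607 points (0.0882 to 1.13) between knockout-only hotspots and those with no MEI4 peak. That difference was called, but not with the stronger 50% of hotspots (0.259), and it was 3.99 and 4.51 points with the list cut to the wild-type number of peaks by width and by line order. Between shared and knockout-only hotspots it differed by 3.27 points (1.55 to 4.99), and under the same cuts this was not called (2.87 and 1.95).

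In the wild type the hotspots that would carry MEI4 only in Hormad1KO had fewer axis proteins than the shared ones of like strength. For wild-type SYCP3 the matched difference, shared minus knockout only, was 11.4 points (8.44 to 14.4), for wild-type IHO1 6.42 points (3.94 to 8.91) and for wild-type HORMAD1 5.24 points (2.64 to 7.85). HORMAD1 itself was called at 28.8% (26.5 to 31.2) of shared, 6.76% (5.81 to 7.86) of knockout-only and 21.0% (14.2 to 30.0) of wild-type-only hotspots, beside 4.70% of all. No wild-type HORMAD1 peak lay at 2150 of the 2306 knockout-only hotspots, nor at 13159 of all 13808 hotspots. With the Hormad1KO MEI4 list cut to the wild-type number of peaks the SYCP3 difference was 6.62 to 7.58 points, still called, and those of IHO1 (2.22 to 2.75) and HORMAD1 (0.0563 to 1.81) were not called. HORMAD1 also fell to 3.14 points with 20 classes and 2.62 with the stronger 50% of hotspots, and IHO1 to 4.17 with the latter, each still called.

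**Figure D3:**
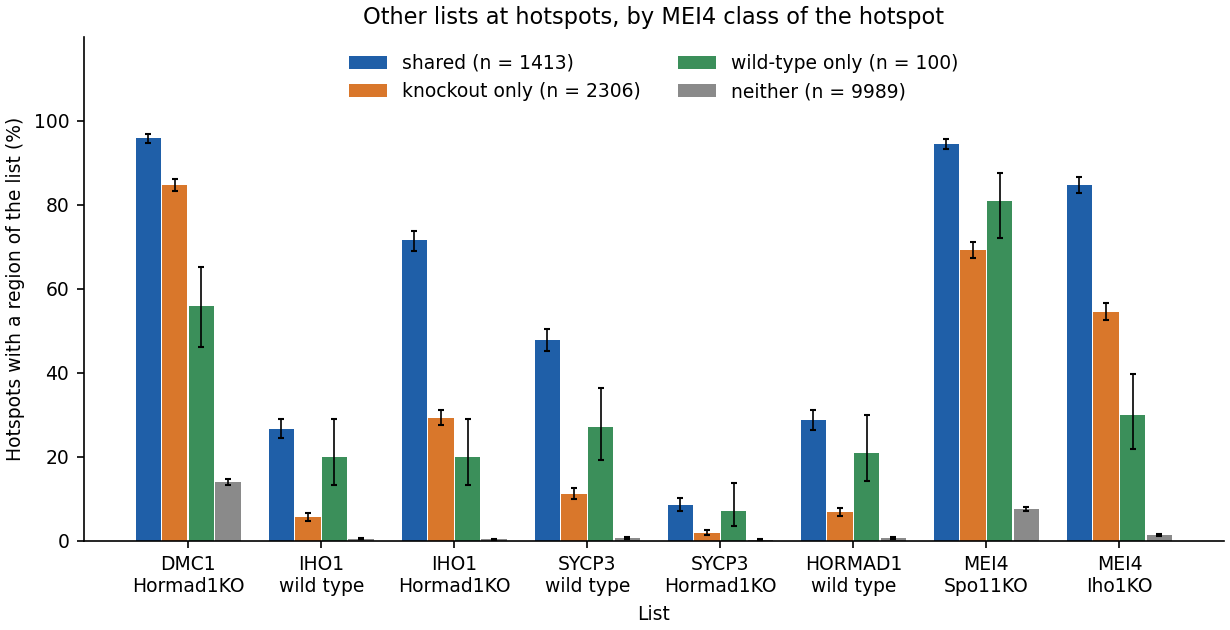
Share of wild-type DMC1 hotspots (vertical axis, percent) with a region of 8 other lists, for the 4 MEI4 classes of hotspots; bars are shares and whiskers 95% Wilson intervals. IHO1 of Hormad1KO stands at 71.5% of shared and 29.3% of knockout-only hotspots, and SYCP3 of Hormad1KO at 8.49% and 1.86%.

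MEI4 peaks were centred on the hotspots. The median distance from a peak's centre to the hotspot's centre was 128 bp for shared and 123 bp for knockout-only peaks of Hormad1KO, and 178 bp for shared peaks of the wild type. IHO1 peaks of Hormad1KO were as central, at 145 bp and 140 bp. Wild-type peaks of IHO1, SYCP3 and HORMAD1 at shared hotspots lay farther out, at medians of 393, 281 and 372 bp. A centre is a coarser measure for a wide peak, and width was not matched between the lists.

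**Figure D4:**
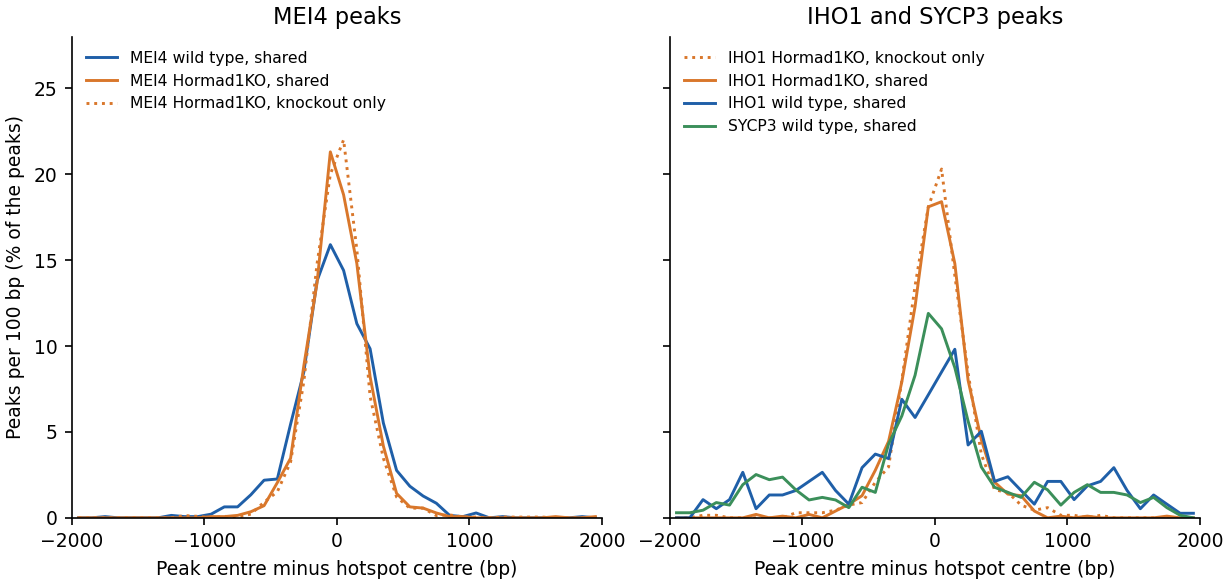
Distance from the hotspot's centre to the peak's centre (horizontal axis, bp, in bins of 100 bp) against the share of peaks per bin (vertical axis, percent), for MEI4 (left) and for IHO1 and SYCP3 (right). Hormad1KO peaks of MEI4 and IHO1 gather within 250 bp (78.6% of shared and 81.4% of knockout-only MEI4 peaks), while wild-type IHO1 and SYCP3 have tails beyond 1000 bp.

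Single sites show the classes directly. Genes are named where the site lies within the span of a RefSeq gene, without exon or intron since the gene table gives only spans. The strongest hotspot of the wild-type list, chr11:89610453-89613094 in Ankfn1, had DMC1 values of 20822.5 in the wild type and 9403 in Hormad1KO and a MEI4 peak in both, 7005 bp wide and 3488 bp wide. IHO1 lay there in both genotypes, and SYCP3 in the wild type only. The hotspot chr1:68487799-68490366 in Erbb4, a receptor tyrosine kinase gene, was the next among shared hotspots with values of 18961 and 6438.5, and it had the same IHO1 and SYCP3 pattern.

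Strong hotspots were also found outside the shared class, so a missing call was not limited to weak sites. The strongest knockout-only hotspot, chr10:92679601-92682158, outside annotated protein-coding genes, had DMC1 values of 18957.5 and 8644.5 and a Hormad1KO MEI4 peak of 4216 bp. Wild-type IHO1, SYCP3 and HORMAD1 peaks lay on it. The third, chrX:42214961-42217155 in the cohesin subunit gene Stag2, had values of 11624.5 and 4842, with SYCP3 but not IHO1 in Hormad1KO. The strongest knockout-only hotspot with neither protein in Hormad1KO was chr15:70385240-70387423, with values of 7740.5 and 1854. The strongest wild-type-only hotspot, chr2:38136483-38138890 in Dennd1a, had the highest Hormad1KO DMC1 value of all, 10257, and a wild-type value of 20513.5. IHO1 and SYCP3 of Hormad1KO were called on it, and MEI4 of Hormad1KO was not. Among hotspots with no MEI4 peak in either genotype the strongest was chr1:58419201-58421408 in the kinase gene Clk1, with values of 11343.5 and 3316.5, where MEI4 was called in Spo11KO and in Iho1KO.

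The knockout-only class also reached weak hotspots. Its lowest wild-type DMC1 value was 20, at chr2:29819439-29821333, and its next were 20.5 at chr15:103181402-103183162 and 24.0 at chr8:70833397-70835298 in the arrestin-domain gene Arrdc2. None of these was in the Hormad1KO DMC1 list. None had an IHO1, SYCP3 or HORMAD1 peak of the wild type or an IHO1 or SYCP3 peak of Hormad1KO.

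Wild-type-only peaks were few, and many of them lay at chromosome ends. In the last 1 Mb up to the highest position in any list lay 21.0% (15.0 to 28.6; 29 of 138) of wild-type-only peaks and 1.75% (1.19 to 2.57; 25 of 1428) of shared wild-type peaks. Of the 39 wild-type-only peaks at no hotspot of either DMC1 list 23 were there. The distal ends of chromosomes 4, 9 and 13 and of the X chromosome, whose end holds the pseudoautosomal region, are known in C57BL/6 mice for arrays of a minisatellite that gather MEI4 and its partners.

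Summed over those ends MEI4 covered less sequence without HORMAD1, with chromosome 13 as an exception, and summed over the other ends it covered more. On chromosomes 4, 9 and 13 together the wild type had 32 peaks over 328973 bp and Hormad1KO also 32 peaks, over 113082 bp. On the X chromosome the change was from 9 peaks over 60432 bp to 5 peaks over 16212 bp. On the other 16 autosomes it was from 13 peaks over 28574 bp to 45 peaks over 98311 bp, with more bp at 13 ends, fewer at 1, chromosome 19, and no peak at the ends of 3 and 17. The counts differed by end, from 9 to 6 peaks on chromosome 4, 20 to 21 on chromosome 9 and 3 to 5 on chromosome 13. On chromosome 9 the widest peak of this stretch measured 56010 bp in the wild type and 20183 bp in Hormad1KO. That wild-type peak, chr9:124098338-124154347 over the chemokine receptor gene Ccr2, met none of the Hormad1KO MEI4 peaks, and the next widest wild-type-only peak was 36637 bp at chr4:156197805-156234441, over Isg15, a ubiquitin-like interferon-induced gene. IHO1 moved with MEI4 on chromosome 9, from 340963 bp to 91379 bp, and SYCP3 from 295231 bp to 166760 bp. IHO1 was also lower on chromosome 4 (61355 bp to 3081 bp), chromosome 13 (32884 bp to 8073 bp) and the X chromosome (65188 bp to 29713 bp). SYCP3 was higher on chromosome 4 (32041 bp to 59503 bp) and on the X chromosome (23377 bp to 28826 bp) and lower on chromosome 13 (14072 bp to 9763 bp). On chromosome 13 the direction was opposite for MEI4, from 4807 bp to 15479 bp. These sums move with how much each list calls, and their relation to peak calling was not tested.

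**Figure D5:**
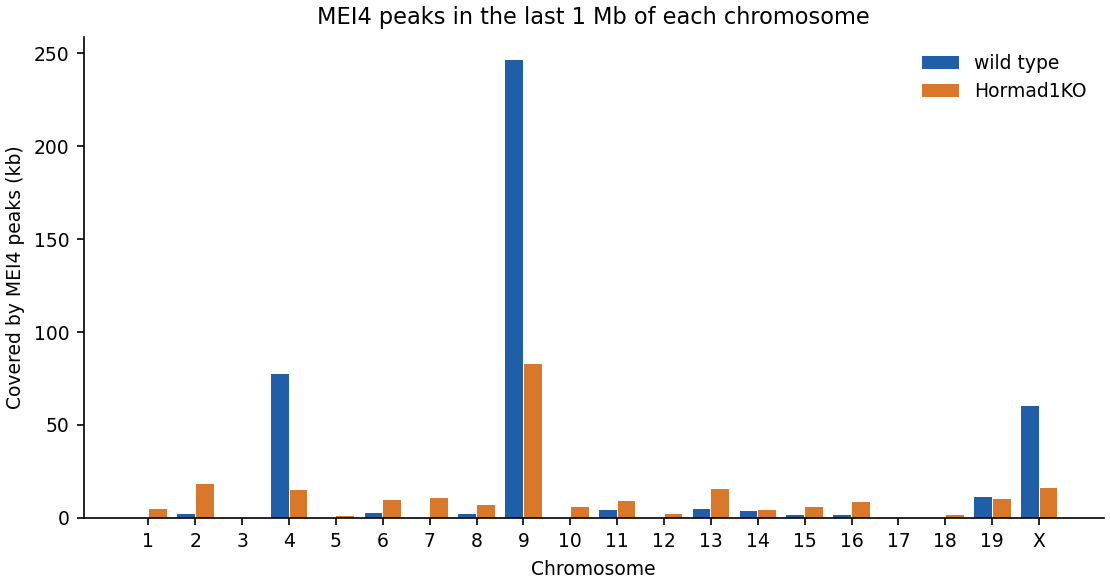
Sequence covered by MEI4 peaks (vertical axis, kb) in the last 1 Mb of each chromosome, in the wild type and Hormad1KO, 1 list each and no error bars. Chromosomes 4, 9 and X are lower in Hormad1KO, and chromosome 13 and 13 of the other 16 autosomes are higher.

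At like DMC1 value, wild-type-only hotspots also lacked IHO1 and DMC1 calls in Hormad1KO more often than shared hotspots did. At matched strength, shared hotspots exceeded wild-type-only ones by 39.5 points (31.2 to 47.8) for IHO1 of Hormad1KO and by 33.3 points (24.1 to 42.4) for the Hormad1KO DMC1 list, the latter 8.58 and 13.7 points with the cuts by width and line order. For the wild-type lists the same difference was not called: -6.82 points (-14.0 to 0.352) for IHO1, 1.18 points (-6.40 to 8.76) for SYCP3 and -5.33 points (-12.6 to 1.92) for HORMAD1. At these 100 hotspots 35.0% (7 of 20) of the wild-type IHO1 calls were kept. The wild-type IHO1 difference was called with 20 classes (-8.66), on autosomes (-7.48) and with the stronger 50% of hotspots (-8.22). It was also called with hotspots whose peaks touch no other hotspot (-7.27). That of HORMAD1 was called with 20 classes (-7.45) and with the stronger 50% (-6.99). In these settings the wild-type-only hotspots stood above the shared ones for IHO1 and HORMAD1. With the 2 cuts both changed sign (6.46 and 6.84 for IHO1, 10.1 and 9.57 for HORMAD1), and the SYCP3 difference was called (16.1 and 17.0).

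MEI4 lists of other knockouts are given beside these, with the Mei4KO control in common. MEI4 of Spo11KO lay at 94.5% of shared, 69.3% of knockout-only, 81.0% of wild-type-only and 7.56% of the remaining hotspots, beside 27.3% of all. MEI4 of Iho1KO lay at 84.7%, 54.5%, 30% and 1.30%, beside 18.9% of all. MEI4 of Prdm9KO lay at 2 of the 2306 knockout-only (0.0867%) and 4 of the 1413 shared hotspots (0.283%), beside 8 of all 13808 (0.0579%). Of the knockout-only hotspots 43.0% had MEI4 in both Spo11KO and Iho1KO, 26.4% in Spo11KO alone, 11.5% in Iho1KO alone and 19.1% in neither of them. So 441 of the 2306 were called in Hormad1KO and in none of the wild-type, Spo11KO and Iho1KO lists. MEI4 of Spo11KO and Iho1KO was also absent at 27 of 1413 shared, 15 of 100 wild-type-only and 9167 of the 9989 remaining hotspots. At shared hotspots 81.1% had both and 1.91% neither, and at wild-type-only hotspots 26.0% and 15.0%. At hotspots with no MEI4 peak in the wild type or Hormad1KO these shares were 0.631% and 91.8%.

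The rise of MEI4, not matched for DMC1 value, differed between chromosomes. On each of the 19 autosomes and the X chromosome a larger share of hotspots had a MEI4 peak in Hormad1KO. The difference was lowest on chromosome 18 with 8.41 points (4.26 to 12.6), chromosome 3 with 9.71 (6.35 to 13.1), chromosome 19 with 10.6 (5.49 to 15.7) and chromosome 10 with 10.8 (7.35 to 14.3). It was highest on chromosomes 11 with 20.7 (16.5 to 24.9) and 2 with 20.3 (17.0 to 23.5). The median wild-type DMC1 value was 128, 116, 124 and 108 on chromosomes 18, 3, 19 and 10. On chromosomes 11 and 2 it was 142 and 141. The part of DMC1 value in the differences between chromosomes was not tested. On the X chromosome the share rose from 9.72% to 23.7%, against 11% to 27.1% on autosomes. At matched DMC1 value the X differed from the autosomes by -5.12 points (-7.29 to -2.95) in the wild type and by -8.90 points (-11.3 to -6.48) in Hormad1KO. The difference between these 2 values was not tested. The median wild-type DMC1 value was 156 on the X and 128 on autosomes. Whether that value measures hotspot strength alike on both was not tested.

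Knockout-only peaks away from hotspots were few. They numbered 74 of 2395, on 21 chromosomes including 12 on chromosome 9 and 4 on the mitochondrial genome. Of the 74, 13 met a CTCF peak, 13 a promoter, 18 an IHO1 peak of Hormad1KO and 11 a MEI4 peak of Prdm9KO. Over all knockout-only peaks these shares were 7.18%, 2.92%, 29.1% and 0.585%. The widest were chrY:90777167-90783605 and chr9:124271269-124277168, found in 17 and 14 of the 21 lists of break and axis proteins. The third was chr9:123860119-123865299 over the chemokine receptor gene Xcr1, found in 9. The site found in all 21 lists, chrX:169992924-169997050 in the Hormad1KO list, was a shared one.

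The Hormad1KO list was the longer, and its length bears on the shares above. Of its 1566 widest peaks 56.1% (53.6 to 58.5) met a wild-type peak, and of its first 1566 lines 66.2% (63.8 to 68.5). At equal length the knockout-only hotspots numbered 667 and 518 in place of 2306, and the wild-type-only hotspots 644 and 487 in place of 100. Both lists ran from wide to narrow and from strong to weak hotspots in their line order (Spearman rho of line number and wild-type DMC1 value -0.503 across 1510 wild-type peaks and -0.611 across 3717 Hormad1KO peaks, a description across peaks of 1 list). Depth and calling threshold were not given, and their part in the length of the lists was not tested.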

How the data were processed

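The deposited files are 1 list of regions per group, 24 in all. The authors' peak lists give start and end on mm10. Bowtie2 and MACS2 are named in the submitters' processing notes without versions, roles or thresholds. The DMC1 lists, per the deposited files, add a signal value per hotspot in steps of 0.5, with no unit given. Per the series' design text each protein's own knockout was subtracted. Coordinates are printed counted from 1. Genes and promoters come from RefSeq tables of GRCm38.p6, which share the coordinates of mm10. The table of protein-coding genes holds 21900 genes, and a genome sequence was not used here, so hotspot sequences are not printed.

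Overlaps of at least 1 bp, Wilson and Newcombe intervals and Mantel-Haenszel differences over 10 equal classes of the wild-type DMC1 value (Greenland-Robins variance) were computed with Python 3.11.15, numpy 2.4.6 and pandas 2.3.3, and tested on simulated data. No p-values were computed. Intervals of the difference between genotypes, by DMC1 class and by chromosome, take no account of the pairing of the 2 shares on the same hotspots. The members and lists were chosen with earlier results of these data known. Sites named were, per class, the 3 hotspots of highest and, for shared and knockout-only, of lowest wild-type DMC1 value, the 3 widest knockout-only peaks at no hotspot, and the 3 strongest knockout-only hotspots without IHO1 and SYCP3 of Hormad1KO, of which the text gives a part. The promoters, the widest wild-type-only peaks and the distal ends were chosen after their values were seen. Alternatives were a required overlap of 50% of the shorter region, 1 kb around each peak centre, autosomes only, 20 classes, the stronger 50% of hotspots, hotspots whose peaks touch no other hotspot, and the Hormad1KO list cut to the wild-type number of peaks by width or, chosen after seeing the data, by line order.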

Additional observations from a re-analysis of the deposited data

How the results depend on the processing

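No paired analysis was possible because there is 1 list per group, and for the same reason leaving out a replicate could not be done. Of the 82 values of the 2 main shares and 9 designed differences under the alternatives, 69 stayed the same. A share did so inside its main interval, a difference with direction and call kept. None of the 9 changed its call with a 1 kb window, 20 classes, the stricter overlap or hotspots whose peaks touch no other hotspot. The 14 added differences are not counted. Among these, shared minus wild-type only stayed the same in 2 of 8 settings for wild-type IHO1. It did in 4 of 8 for wild-type SYCP3, wild-type HORMAD1 and MEI4 of Spo11KO. For IHO1 and DMC1 of Hormad1KO and MEI4 of Iho1KO it did in 8 of 8. The other added differences stayed the same in 7 or 8 of 8. With the Hormad1KO list cut to its widest peaks or to its first lines, 56.1% and 66.0% of wild-type peaks were shared, and 56.1% and 66.2% of Hormad1KO peaks. Under the same cuts, shared minus knockout only was no longer called for SYCP3 of Hormad1KO (2.87 and 1.95 points), IHO1 of the wild type (2.75 and 2.22) and HORMAD1 of the wild type (1.81 and 0.0563). For the Hormad1KO DMC1 list that difference became called at -1.66 points with the first lines, and was 0.0468, not called, on autosomes. With the stronger 50% of hotspots, SYCP3 of Hormad1KO, knockout only minus neither, was 0.259 and not called. Shared minus wild-type only reversed for wild-type IHO1 (6.46 and 6.84) and HORMAD1 (10.1 and 9.57) under the 2 cuts, which place more hotspots in the wild-type-only class, and for wild-type SYCP3 with the 1 kb window (-0.576) and 20 classes (-0.928). The cause was not tested. Depth is unknown, so no limit on missed peaks can be given.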

Other observations

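Taken as a whole, hotspots without MEI4 in either genotype met a promoter more often than those with it, but not in the strongest classes of DMC1 value. The share was 11.8% (11.2 to 12.4) of these hotspots, against 2.19% (1.55 to 3.10) of shared, 2.43% (1.87 to 3.14) of knockout-only and 5% (2.15 to 11.2) of wild-type-only ones, beside 9.18% of all hotspots. The share followed the DMC1 value: among hotspots without MEI4 it was 18.6% in the weakest class, 10.6% in the fifth and 2.90% in the eighth, where knockout-only hotspots stood at 2.64%. In the ninth class it was 0.563%, against 2.22% of knockout-only and 1.75% of shared hotspots, and in the strongest 0 of 91 (Wilson upper bound 4.05%), against 1.27% and 2.41%. In the fifth class knockout-only hotspots stood at 4.76% (2.20 to 10.0) and in the sixth at 1.06% (0.291 to 3.78) against 6.94% (5.63 to 8.54). The span of a protein-coding gene held 60.9% of shared, 62.7% of knockout-only and 55.5% of the remaining hotspots, beside 57.3% of all. CTCF peaks of the wild type lay at 8.85%, 7.07% and 8.66% of these classes and at 19.0% (12.5 to 27.8) of the wild-type-only hotspots, beside 8.49% of all. These are descriptions with no test.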
